A study of Mus musculus with 3 samples.

Results

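Translation factors are the proteins that bring an mRNA, the initiator tRNA and the ribosomal subunits together (initiation factors, gene names beginning *Eif*) and that carry each following tRNA into the ribosome and move the ribosome along the mRNA (elongation factors, *Eef1* and *Eef2*). The genes were taken by name: protein-coding genes whose symbol begins with *Eif1* to *Eif6* or with *Eef1* or *Eef2*, leaving out the eIF2 kinases (*Eif2ak*). This gave 64 of the 25759 genes in the files, and 60 of the 64 had a mean RPKM above 1 over the libraries. RPKM gives the reads on the exons of a gene per length of exon and per size of the library. The 4 others, *Eef1a2*, *Eef1akmt3*, *Eif4e1b* and *Eif4ebp3*, had 0 exon reads in each library.

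Poly(A) RNA was sequenced from follicular regulatory T cells (TFR cells), which were sorted as B220-CD4+CXCR5+GITRhi Blimp-GFP+ cells from spleen and mesenteric lymph nodes 10 days after immunization with 125 µg NP-KLH in alum and 3 days after a boost on day 7. There were 3 libraries, 1 for each genotype, so no spread between mice can be given and no test was possible. The mice of the library labelled N were Nfatc1 fl/fl.Prdm1 gfp/+.FIC and are titled NFATc1-deficient. Those of the library αA were Nfatc1caaA.Prdm1 gfp/+.FIC, with a constitutively active NFATc1/αA transgene, and those of PαA were Nfatc1caaA.Prdm1 gfp/fl.FIC, with the second *Prdm1* allele floxed. All 3 genotypes carry FIC, a Cre recombinase expressed from the *Foxp3* locus that is also active in some conventional T cells, and 1 *Prdm1* allele that reports as GFP. How many mice were behind each library was not given in the sources used here, and mice of both sexes were used in the study. In all, 29726219, 27239921 and 25465829 reads stand behind the RPKM of N, αA and PαA.

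In the cytosol, eIF2 with GTP delivers the initiator tRNA, eIF2B recharges eIF2 with GTP, and eIF3 together with eIF1 and eIF1A holds the small ribosomal subunit ready for the mRNA. The cap-binding protein eIF4E, the scaffold eIF4G and the helicase eIF4A form eIF4F on the 5′ end of the mRNA, and the 4E-binding proteins (4E-BPs) keep eIF4E away from eIF4G until they are phosphorylated by mTOR. eIF5 and eIF5B act when the start codon is found and the large subunit joins. During elongation eEF1A brings the aminoacyl-tRNA, the eEF1B subunits recharge eEF1A, eEF2 moves the ribosome by a codon, and the kinase eEF2K halts eEF2. The mRNAs of many of these factors and of the ribosomal proteins begin with a run of C and T bases, the 5′ terminal oligopyrimidine (TOP) tract, and activated T cells are known to raise their translation through mTOR and Myc.

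Since such a tract lies at the start of the transcript, the bases around the annotated starts are shown for the most abundant elongation factors, for the X- and Y-linked copies of the eIF2 γ subunit, and for members that differed most between the libraries, with *Eif3f* as an initiation factor that was nearly level and had a long run. The sequences are those of RefSeq on GRCm38.p6, from 20 bases before to 30 bases after the start listed in the RefSeq table (the most upstream where it lists several), on the strand of the gene, and the capitals mark the longest unbroken run of C and T. The 12 windows are listed by gene.
Eef1a1 (chr9:78481695-78481744, minus strand): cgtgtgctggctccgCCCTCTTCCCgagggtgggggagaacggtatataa
Eef2 (chr10:81176611-81176660, plus strand): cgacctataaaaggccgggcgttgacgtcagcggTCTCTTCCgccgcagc
Eef1b2 (chr1:63176811-63176860, plus strand): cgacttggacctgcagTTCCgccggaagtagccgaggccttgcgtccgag
Eef1e1 (chr13:38658999-38659048, minus strand): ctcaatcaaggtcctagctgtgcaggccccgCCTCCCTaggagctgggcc
Eif3f (chr7:108934395-108934444, plus strand): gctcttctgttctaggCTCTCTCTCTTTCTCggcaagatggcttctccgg
Eif2s3x (chrX:94212622-94212671, minus strand): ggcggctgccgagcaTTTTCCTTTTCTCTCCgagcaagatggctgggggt
Eif2s3y (chrY:1010575-1010624, plus strand): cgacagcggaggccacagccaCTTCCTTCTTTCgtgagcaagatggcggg
Eif3a (chr19:60790664-60790713, minus strand): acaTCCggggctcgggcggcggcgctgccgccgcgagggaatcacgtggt
Eif4g1 (chr16:20672707-20672756, plus strand): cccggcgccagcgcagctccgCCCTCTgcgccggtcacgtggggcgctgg
Eef2k (chr7:120842811-120842860, plus strand): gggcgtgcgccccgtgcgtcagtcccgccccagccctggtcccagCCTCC
Eif3j1 (chr2:122028560-122028609, plus strand): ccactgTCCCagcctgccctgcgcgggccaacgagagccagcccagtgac
Eef2kmt (chr16:5255927-5255976, minus strand): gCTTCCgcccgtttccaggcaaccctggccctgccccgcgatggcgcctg

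The windows of *Eif2s3x* and *Eif2s3y* both held a long C and T run, of 16 and 12 bases. After the run both held the same 12 letters gagcaagatggc, which include an ATG. These follow directly in *Eif2s3x* and after the bases gt in *Eif2s3y*. The run of *Eif3f* was 15 bases long, that of *Eef1a1* 10 and that of *Eef2* 8. The runs of *Eif3a* (3 bases), *Eef1b2* (4), *Eif3j1* (4), *Eef2k* (5), *Eef2kmt* (5), *Eif4g1* (6) and *Eef1e1* (7) were shorter. A window was found for 48 of the 64 members. Of these, 13 (27.1%) held a run of 8 or more C or T bases on the strand of the gene, against 18.8% of 27025 genes in the table, 17.4% of the 7611 protein-coding genes in it with a mean RPKM above 1, and 49.2% of 63 genes of cytosolic ribosomal proteins. On the opposite strand the same run was present in 12.5% of the members and in 21.5% of all genes. The 12 expressed members with such a run had a median log2 ratio of RPKM between PαA and N of 0.04, and the 35 without it a median of 0.00. The windows of *Eef1a1* and *Eif4g1* lie 7427 and 4414 bases inside the span of the gene in the files. Annotated starts can differ from the starts used in these cells, and the windows are a description of the sequence only.

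The labels were read against marker genes first. The RPKM of *Cd4* was 488, 396 and 341 in N, αA and PαA, that of *Foxp3* 32.7, 20.9 and 15.3, that of *Cxcr5* 48.3, 81.3 and 47.6, and *Tnfrsf18*, which encodes GITR, 303, 217 and 145. The sort markers *Cd4*, *Cxcr5* and *Tnfrsf18* were thus present in each library, as was *Foxp3*, which was not part of the sort. All 4 genes were lowest in PαA. Of the 8 genes on the list of sort and type markers, none lay above the median of expressed genes in PαA against αA. *Prdm1*, which encodes Blimp-1, had an RPKM of 25.6, 24.9 and 10.0. *Nfatc1* had 63.6, 62.9 and 32.4, which does not separate the library labelled N from αA. These are reads on the whole gene, the mice of αA and PαA carry an NFATc1/αA transgene, and reads on the floxed part alone were not analysed here, so the level checks neither the deletion nor the label. N, αA and PαA are therefore used as the names of 3 labelled libraries, and a direction between them holds only as far as the labels do.

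Of all exon reads, the translation factor genes held 3.89% (N), 4.06% (αA) and 4.29% (PαA). *Eef1a1*, the main eEF1A gene, alone held 50.1%, 51.4% and 53.0% of these reads. It had 538300, 506688 and 528552 exon reads in N, αA and PαA and stood at rank 1, 3 and 2 by RPKM among all genes in the files. *Eef2* followed with an RPKM of 1903, 1806 and 1824, then the eEF1B subunit *Eef1g* with 589, 608 and 712, the eIF3 subunit *Eif3h* with 480, 519 and 590, and the eEF1B subunit *Eef1b2* with 399, 473 and 602. The helicase gene *Eif4a1* (292, 314 and 334), *Eif3e* (291, 303 and 308), *Eif1* (293, 309 and 294), *Eif3f* (275, 270 and 285) and *Eif5a* (230, 249 and 296) complete the 10 most abundant members. The median member had 41.8, 37.8 and 39.6 RPKM in N, αA and PαA, against 9.46, 8.33 and 7.91 for the median of the 9675 protein-coding genes with a mean RPKM above 1, which are called expressed genes from here on. At the low end *Eif2b3*, *Eif3j1*, *Eef2k*, *Eif4g3*, *Eif5a2*, *Eef2kmt* and *Eef1akmt4* had an RPKM of 0.497 to 5.93.

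**Figure D1:**
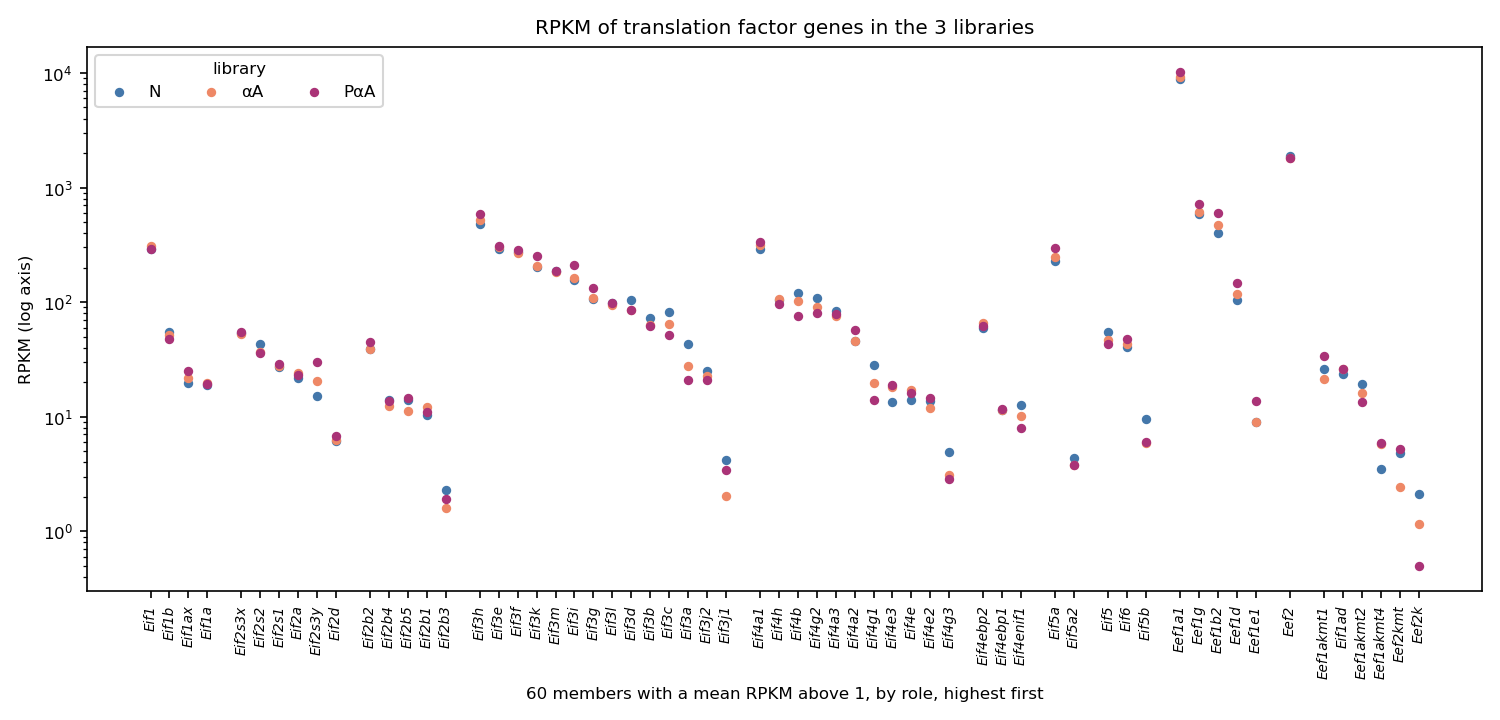
RPKM (log axis) of the 60 expressed members in the libraries N, αA and PαA, 1 point per library, by role and then by mean RPKM. *Eef1a1* and then *Eef2* stand highest in all 3 libraries, while *Eef2k* is lowest and is spread most widely between the libraries.

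The comparisons were αA against N, PαA against αA, and PαA against N, and they share libraries, so they are not independent. A ratio was counted as higher or lower when it passed 1.5-fold. The 95% intervals given are exact Clopper-Pearson intervals from the exon reads of the libraries compared. As reads amplified by PCR carried no molecular identifiers, the intervals hold for the error of counting alone and say nothing of other mice of a genotype. The median log2 ratio of all expressed genes was -0.16 in αA against N, -0.07 in PαA against αA and -0.23 in PαA against N. Ratios are therefore also given as their distance from this median where the shift matters.

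Between αA and N the median log2 ratio of the 60 members was -0.02, that is 0.14 above the median of all expressed genes. The single member that was higher was *Eef1akmt4* (background 4.38% of expressed genes), whose reads were mostly not unique and whose log2 ratio with unique reads alone was 0.56, and 6 members were lower, *Eef2k*, *Eef2kmt*, *Eif3a*, *Eif3j1*, *Eif4g3* and *Eif5b*, or 10.0% of the members against 15.2% of expressed genes. With edgeR's TMM factors, which bring the median of all expressed genes to about 0, the members higher were *Eef1akmt4*, *Eif2s3y* and *Eif4e3* (background 6.66%) and those lower *Eef2k*, *Eef2kmt* and *Eif3j1* (9.58%). With TPM the same 7 members passed as with RPKM (background 4.12% higher and 16.8% lower). Past 2-fold there was 1 member, *Eif3j1* (background 7.05%).

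Between PαA and αA the members had a median of 0.04, or 0.12 above all expressed genes. Higher were 4 members, *Eef1akmt1*, *Eef1e1*, *Eef2kmt* and *Eif3j1* (6.67% against a background of 7.64%), and lower was *Eef2k* alone (background 12.6%). With TMM factors *Eif2s3y* joined the higher members, which made 5 (background 9.21%), and *Eef2k* remained the lower one (10.4%). With TPM 2 were higher, *Eef2kmt* and *Eif3j1* (background 5.2%), and 2 lower, *Eef2k* and *Eif4g1* (20.3%). *Eef2k* and *Eef2kmt* passed 2-fold (background 7.44%).

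Between PαA and N the median was 0.05, or 0.28 above all expressed genes. Higher were 4 members, *Eef1akmt4*, *Eef1b2*, *Eef1e1* and *Eif2s3y* (6.67% against 6.64% of expressed genes), of which *Eef1akmt4* turns to -1.51 with unique reads alone, and lower were 8, *Eef2k*, *Eif3a*, *Eif3c*, *Eif4b*, *Eif4enif1*, *Eif4g1*, *Eif4g3* and *Eif5b* (13.3% against 26.6%). With TMM factors 9 were higher (15% against 12.4%), namely *Eef1akmt1*, *Eef1akmt4*, *Eef1b2*, *Eef1d*, *Eef1e1*, *Eif2s3y*, *Eif3i*, *Eif4e3* and *Eif5a*, and 3 were lower (5.0% against 16.2%), *Eef2k*, *Eif3a* and *Eif4g1*. The same 3 passed 2-fold (background 14.1%). With TPM, which divides by the summed values per length, the split was 1 higher, *Eif2s3y* (4.41% of expressed genes), and 10 lower (16.7% against 38.7%), *Eef1akmt2* and *Eif4g2* having joined the 8. The share of lower members was under the background on these 3 scales, while that of higher members moved with the scale.

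**Figure D2:**
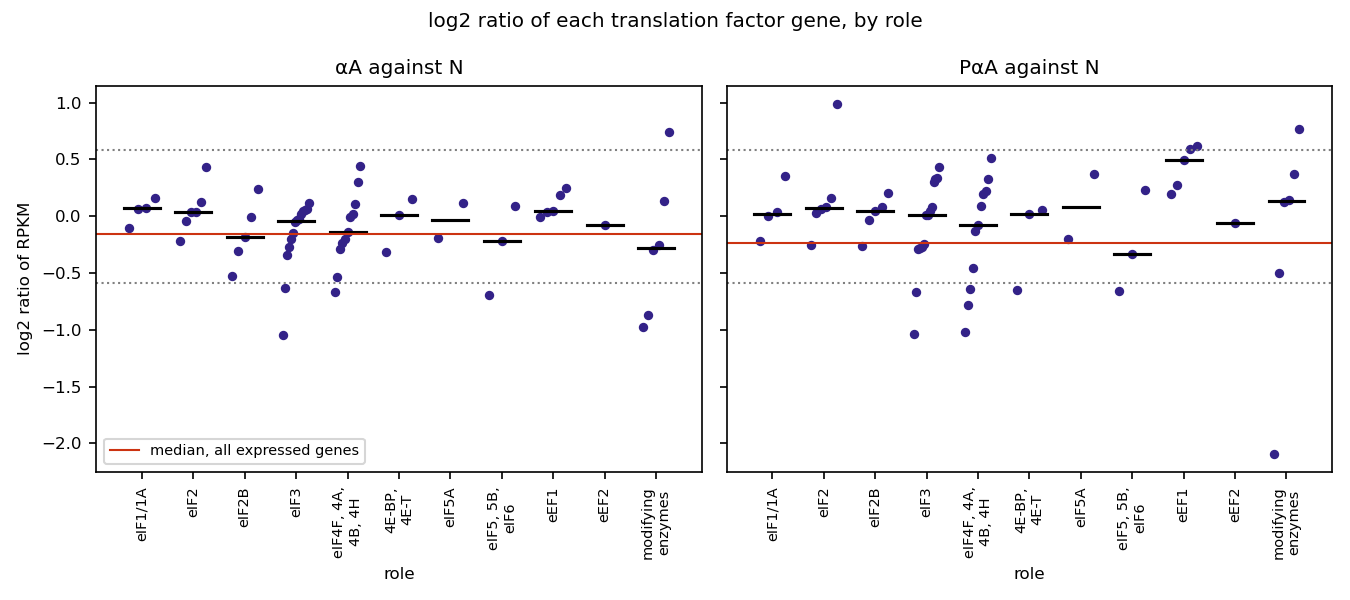
log2 ratio of RPKM of each expressed member in αA against N (left) and in PαA against N (right), by role, 1 point per gene and a black bar at the median of the role. The red line is the median of all expressed genes (-0.16 and -0.23), the dotted lines are 1.5-fold, and the modifying enzymes include the eIF1A-domain gene *Eif1ad*. In PαA against N the eEF1 genes lie highest as a group, and eIF3 and eIF4F reach furthest down apart from *Eef2k*. In αA against N *Eif3j1* and *Eef2kmt* lie lowest.

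The eEF1 genes stood highest of the roles in PαA against N, with a median log2 ratio of 0.49 over 5 members, all above the median of expressed genes. *Eef1b2* (ENSMUSG00000025967, chromosome 1 from 63176825 to 63180486, GRCm38 as for all genes here) is the exchange factor that returns eEF1A to its GTP form, and had 28297, 30731 and 36598 exon reads in N, αA and PαA. Its RPKM was 399, 473 and 602, a stepwise order, with a log2 ratio of 0.25 (interval 0.22 to 0.27) in αA against N and 0.59 (0.57 to 0.62) in PαA against N. *Eef1d*, a further exchange subunit, had RPKM values of 104, 118 and 147, with a log2 ratio of 0.49 (0.45 to 0.53) in PαA against N. *Eef1g*, the subunit that holds this complex together, reached 0.27 (0.25 to 0.29), and *Eef1a1* reached 0.20 (0.19 to 0.20). All 4 of these genes had the lowest RPKM in N and the highest in PαA, whereas the TPM of *Eef1a1* was 18555, 18642 and 18553. *Eef1e1*, which encodes a scaffold protein of the multi-tRNA synthetase complex, had 9.04, 8.97 and 13.8 RPKM in N, αA and PαA, so that PαA alone stood apart, with a log2 ratio of 0.62 (0.47 to 0.77) against αA. *Eef1a2*, the paralog of *Eef1a1* known from muscle and neurons, had no reads. A count of 0 allows up to 3 reads, and 3 reads on 1 kb of exon are an RPKM of 0.101 in N, 0.110 in αA and 0.118 in PαA.

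*Eef2* was nearly level, with log2 ratios of -0.08 (-0.09 to -0.07) in αA against N and 0.01 (0.00 to 0.03) in PαA against αA, and so lay between 0.08 and 0.17 above the median of expressed genes in the 3 comparisons. The RPKM of *Eef1a1* was 4.70 times that of *Eef2* in N, 5.09 times in αA and 5.62 times in PαA. The gene of the kinase that inhibits eEF2 is *Eef2k* (ENSMUSG00000035064, chromosome 7 from 120842831 to 120907450). By the ratio of RPKM, *Eef2k* moved most of all members in PαA against αA and in PαA against N. With TMM factors *Eef2kmt* moved slightly more in PαA against αA, at 1.17 against -1.15 for *Eef2k*. Centred on exon length it also did so, at 1.11 against -0.98. The gene *Eef2k* is described first. It had 453, 227 and 91 exon reads in N, αA and PαA, which is an RPKM of 2.12, 1.16 and 0.497. From library to library the log2 ratio was -0.87 (-1.11 to -0.64) in αA against N, -1.22 (-1.59 to -0.86) in PαA against αA and -2.09 (-2.43 to -1.76) in PαA against N. All its exon reads were unique in N and in PαA, and the gene stayed past 1.5-fold in PαA against N under all 8 alternative values, which ran from -2.29 to -1.06. Its exons are long, 7186 bases, and its ratio centred on genes of that length was -1.49 in PαA against N, -0.98 in PαA against αA and -0.53 in αA against N, the last short of 1.5-fold. With a pseudocount of 1 RPKM the ratio was also short of it in αA against N and in PαA against αA, at -0.53 in each. The ratio of the RPKM of *Eef2* to that of *Eef2k* was 897 in N, 1557 in αA and 3669 in PαA.

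Among the enzymes that modify elongation factors the levels were mixed, and some of the widest ratios fell here. *Eef2kmt*, a lysine methyltransferase of eEF2, had 320, 149 and 299 exon reads in N, αA and PαA (RPKM 4.79, 2.43 and 5.22), and *Eef1akmt1*, a lysine methyltransferase of eEF1A, had an RPKM of 26.2, 21.3 and 34.0. Both were lowest in αA. The log2 ratio of *Eef2kmt* was -0.98 (-1.27 to -0.69) in αA against N and 1.10 (0.81 to 1.40) in PαA against αA, and that of *Eef1akmt1* in PαA against αA was 0.67 (0.51 to 0.84). *Eef2kmt* overlaps *Alg1* on the opposite strand by 761 bases, and *Alg1* had 706, 725 and 396 exon reads, with PαA lowest. *Eef1akmt4* had an RPKM of 3.49, 5.81 and 5.93, but only 20, 27 and 6 of its 167, 255 and 243 reads were unique. It overlaps *Ece2_1* on the same strand by 7407 bases, nearly its whole span. With unique reads alone its log2 ratio in PαA against N was -1.51 in place of 0.76, so no direction can be given. *Eef1akmt2* had 19.1, 16.0 and 13.5, also with few unique reads, and *Eif1ad*, a protein with the domain of eIF1A, had 23.5, 25.8 and 25.9.

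**Figure D3:**
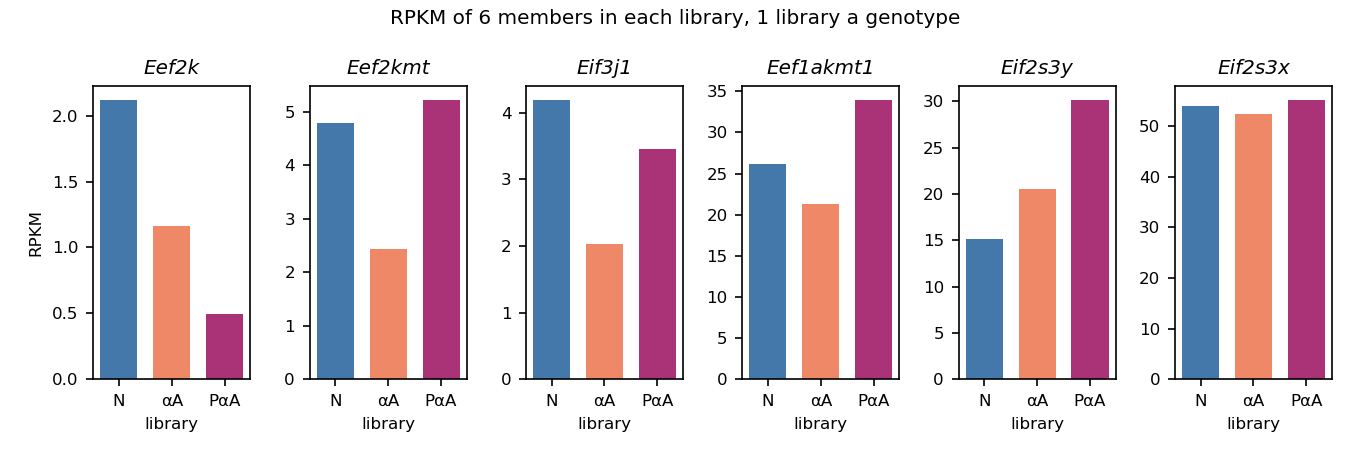
RPKM of *Eef2k*, *Eef2kmt*, *Eif3j1*, *Eef1akmt1*, *Eif2s3y* and *Eif2s3x* in N, αA and PαA, 1 bar per library from 0 and 1 library per genotype. *Eef2k* steps down from 2.12 to 0.497, the next 3 genes are lowest in αA, *Eif2s3y* steps up from 15.2 to 30.2 and *Eif2s3x* stays between 52.4 and 55.2.

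Of the eIF2 genes, *Eif2s1* and *Eif2s2* encode the α and β subunits, and *Eif2s3x* and *Eif2s3y* are the X- and Y-linked genes of the γ subunit, which binds GTP and the initiator tRNA. *Eif2s3y* (ENSMUSG00000069049, chromosome Y from 1010543 to 1028847) had 828, 1027 and 1410 exon reads in N, αA and PαA, an RPKM of 15.2, 20.5 and 30.2. Its log2 ratio was 0.44 (0.30 to 0.57) in αA against N and 0.99 (0.87 to 1.12) in PαA against N, the highest of all members. *Eif2s3x* had an RPKM of 54.1, 52.4 and 55.2, with a log2 ratio of 0.03 (-0.02 to 0.08) in PαA against N. The Y copy was therefore 0.281 times the X copy in N, 0.392 times in αA and 0.546 times in PαA, and the reads of both genes were unique in N and in PαA. Other Y-linked genes, chosen after the values of *Eif2s3y* were seen, did not follow this order. *Ddx3y* had an RPKM of 14.5, 17.3 and 10.4, *Kdm5d* of 2.77, 1.85 and 1.76, and *Uty* of 5.02, 3.57 and 3.72. The sexes of the mice behind each library were not given in the sources used here, and the part of sex in the level of *Eif2s3y* was not tested. *Eif2s1* was level at 27.0, 27.8 and 28.6. *Eif2s2* had 42.9, 36.9 and 36.0, with 31.8% unique reads in N, and *Eif2a* and *Eif2d*, which encode other tRNA-delivering factors, had 21.9 and 6.12 in N and 22.9 and 6.85 in PαA.

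The 5 genes of eIF2B had a median log2 ratio of -0.18 in αA against N and of 0.21 in PαA against αA. *Eif2b2* was the most abundant with an RPKM of 39.0, 38.8 and 44.9. The catalytic subunit *Eif2b5* had 14.0, 11.3 and 14.5, with a log2 ratio of 0.36 (0.23 to 0.48) in PαA against αA, and *Eif2b1* had 10.3, 12.2 and 10.9, the only one of the 5 that was highest in αA. *Eif2b3* had the lowest level, 2.31, 1.60 and 1.93. None of the 5 passed 1.5-fold in any of the 3 comparisons.

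The eIF3 complex did not move as a unit. Its 14 genes had a median log2 ratio of 0.01 in PαA against N, and 8 of them lay above the median of expressed genes. The genes of its large scaffold subunits *Eif3a* and *Eif3c* were lower. *Eif3a* (ENSMUSG00000024991, chromosome 19 from 60761116 to 60790693) had 6649, 3926 and 2780 exon reads in N, αA and PαA, RPKM values of 43.2, 27.8 and 21.1, with log2 ratios of -0.63 (-0.69 to -0.58) in αA against N and -1.03 (-1.10 to -0.97) in PαA against N. With TMM factors these ratios were -0.47 and -0.81, and centred on exon length -0.39 and -0.59, so that the first did not pass 1.5-fold in either case. *Eif3c*, the other core scaffold, had RPKM values of 81.4, 64.1 and 51.2, with a log2 ratio of -0.67 (-0.72 to -0.62) in PαA against N, which did not pass 1.5-fold with TMM factors (-0.44) or centred on exon length (-0.40). *Eif3b* (72.6, 63.1 and 61.4) and the cap-binding subunit *Eif3d* (104, 86.1 and 84.8) did not pass 1.5-fold, and after TMM scaling their log2 ratios in PαA against N were -0.01 and -0.06.

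In PαA against N none of the 14 passed 1.5-fold upwards with RPKM. *Eif3i* did so with TMM factors (0.66) but not centred on exon length (0.34). The highest ratios of RPKM were those of several small subunits. *Eif3i*, a WD-repeat subunit of the module with eIF3b and eIF3g, had RPKM values of 157, 163 and 212, with a log2 ratio of 0.43 (0.38 to 0.49) in PαA against N. For *Eif3k* the ratio was 0.34 (0.29 to 0.38), for *Eif3g* 0.33 (0.26 to 0.39) and for *Eif3h* 0.30 (0.27 to 0.33), and each of the 4 was highest in PαA. The other peripheral subunits *Eif3e*, *Eif3f*, *Eif3l* and *Eif3m* had log2 ratios from 0.01 to 0.08. As a result the RPKM of *Eif3h* was 11.1 times that of *Eif3a* in N, 18.6 times in αA and 28.0 times in PαA. The exons of *Eif3h* span 1295 bases and those of *Eif3a* 5176. Centred on exon length, the log2 ratios in PαA against N lay closer together. They were 0.22 for *Eif3h*, 0.23 for *Eif3k*, 0.20 for *Eif3g* and -0.59 for *Eif3a*. *Eif3j1*, a loosely bound subunit, had 675, 300 and 476 exon reads in N, αA and PαA, and its log2 ratio was -1.04 (-1.25 to -0.85) in αA against N and 0.76 (0.55 to 0.98) in PαA against αA. It overlaps *Spg11* on the opposite strand by 3079 bases, whose exon reads were 740, 441 and 242, and 40.9% of its own reads were unique in N. *Eif3j2*, a copy with a single exon, had an RPKM of 25.1, 22.7 and 20.8, but 0, 4 and 0 unique reads, so its level cannot be told apart from that of *Eif3j1*. The summed reads of the pair gave a log2 ratio of -0.34 (-0.43 to -0.25) in αA against N. In PαA against αA they gave 0.07 (-0.03 to 0.16), and neither was past 1.5-fold. Of the 2451, 1771 and 1735 summed reads, *Eif3j2* held 1776, 1471 and 1259. The unique reads of *Eif3j1* were 276, 115 and 208. Over 8 alternative values, the ratio of *Eif3j1* in αA against N ran from -1.14 to -0.78, with 8 past 1.5-fold. In PαA against αA the ratio of *Eif3j1* ran from 0.55 to 0.96, with 7 of 8 past it.

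**Figure D4:**
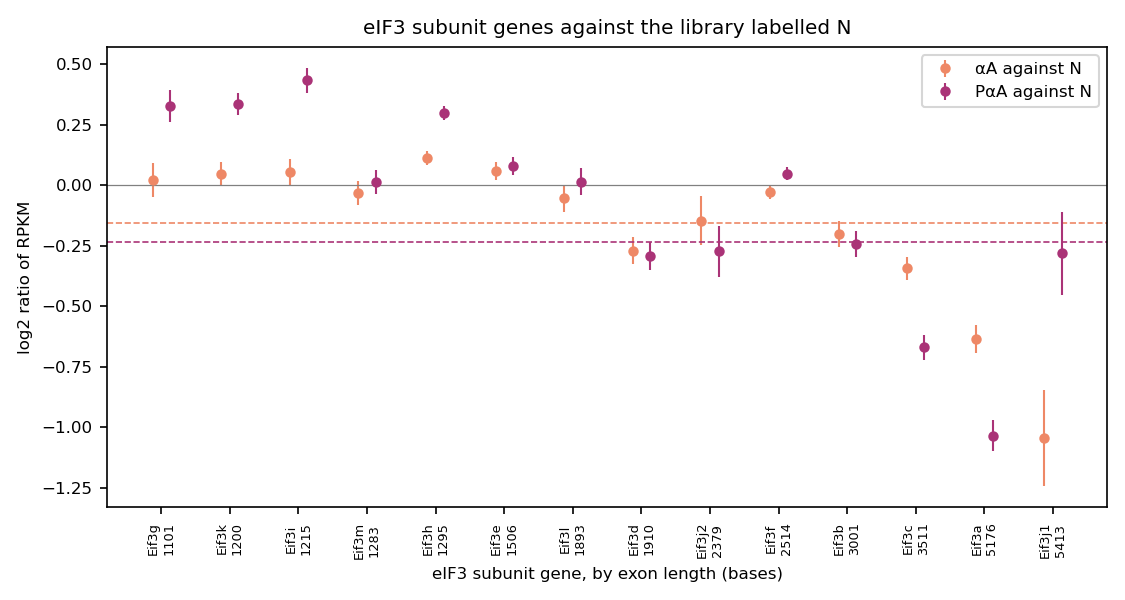
log2 ratio of RPKM of the 14 eIF3 genes in αA against N and in PαA against N, ordered by exon length (given in bases under each symbol), with exact 95% counting intervals. The dashed lines are the medians of all expressed genes (-0.16 and -0.23). In PαA against N, *Eif3g*, *Eif3k*, *Eif3i* and *Eif3h* among the short genes lie highest, *Eif3m* lies near 0, and *Eif3c* and *Eif3a* lie lowest. In αA against N *Eif3j1* lies lowest.

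In eIF4F and its helpers the median log2 ratio was -0.14 in αA against N and -0.07 in PαA against N over 11 expressed genes, 0.01 and 0.16 above that of expressed genes. The scaffold genes *Eif4g1* and *Eif4g3* were lower, and *Eif4g2* did not pass 1.5-fold. *Eif4g1* (ENSMUSG00000045983, chromosome 16 from 20668313 to 20692884) had 5326, 3364 and 2258 exon reads in N, αA and PαA, RPKM values of 28.3, 19.5 and 14.0, with a log2 ratio of -1.01 (-1.09 to -0.94) in PαA against N. Its paralog *Eif4g3* had an RPKM of 4.88, 3.08 and 2.84, with a log2 ratio of -0.78 (-0.91 to -0.65), and *Eif4g2*, a relative that lacks the eIF4E-binding part, had 109, 89.8 and 79.6, with -0.46 (-0.49 to -0.43). All 3 were highest in N and lowest in PαA. Centred on genes of the same exon length, the 3 ratios were -0.48, 0.02 and 0.25, so *Eif4g1* alone lay below genes of its length, and none of the 3 was past 1.5-fold. *Eif4b*, which stimulates the helicase, had an RPKM of 119, 102 and 76.4, with a log2 ratio of -0.64 (-0.69 to -0.60) that did not pass with TMM factors (-0.42) or centred on exon length (-0.33), whereas *Eif4h*, its relative, had 104, 106 and 95.5.

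None of the helicase genes passed 1.5-fold. *Eif4a1* had a log2 ratio of 0.19 (0.16 to 0.23) in PαA against N, and *Eif4a2* had an RPKM of 45.5, 45.3 and 56.9, with 0.33 (0.27 to 0.38). *Eif4a1* held 86.5% of their summed RPKM in N, 87.4% in αA and 85.4% in PαA. *Eif4a3*, a helicase of the exon junction complex, had 83.0, 75.2 and 78.9. The gene of the cap-binding protein *Eif4e* had an RPKM of 13.9, 17.0 and 16.2, *Eif4e2*, a cap-binding repressor, 13.7, 11.9 and 14.6, and *Eif4e3* 13.4, 18.2 and 19.1, the last with only 16.8% unique reads in N. The log2 ratio of *Eif4e* was 0.30 (0.22 to 0.38) in αA against N and -0.08 (-0.16 to 0.00) in PαA against αA. The oocyte gene *Eif4e1b* had 0 reads.

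Among the proteins that bind eIF4E, the 4E-BP genes were level. *Eif4ebp2* was the most abundant with an RPKM of 58.99, 65.4 and 61.4, and *Eif4ebp1* had 11.4, 11.5 and 11.6, with a log2 ratio of 0.02 (-0.14 to 0.18) in PαA against N. *Eif4ebp2* had 5.17 times the RPKM of *Eif4ebp1* in N, 5.68 times in αA and 5.31 times in PαA, and 0.235, 0.261 and 0.263 was the ratio of *Eif4e* to *Eif4ebp2*. *Eif4ebp3* had 0 reads, but lies within *Ankhd1* on the same strand, which had 2169, 1235 and 1098. *Eif4enif1*, which encodes the transporter of eIF4E, had RPKM values of 12.5, 10.1 and 7.98, with a log2 ratio of -0.65 (-0.77 to -0.53) in PαA against N, or -0.42 with TMM factors, -0.29 centred on exon length and -1.30 with unique reads alone. In N 25.4% of its reads were unique and in PαA 16.2%, and its locus overlaps *Drg1* on the opposite strand.

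Of eIF1 and its relatives, *Eif1* had an RPKM of 293, 309 and 294 and its paralog *Eif1b* 55.0, 51.3 and 47.4, a ratio of 5.33, 6.02 and 6.19. *Eif1* had 33.9% unique reads in N, and *Eif1b* 100%. The X-linked *Eif1ax* had an RPKM of 19.6, 21.8 and 25.02, with a log2 ratio of 0.35 (0.28 to 0.43) in PαA against N, while *Eif1a* had 18.8, 19.7 and 19.4. Of the late factors, *Eif5*, which activates the GTPase of eIF2, had 54.4, 46.8 and 43.1. *Eif5b*, the GTPase that joins the subunits, had 2226, 1262 and 1206 exon reads in N, αA and PαA (RPKM 9.60, 5.94 and 6.07), with log2 ratios of -0.69 (-0.79 to -0.59) in αA against N and 0.03 (-0.08 to 0.15) in PαA against αA. Centred on genes of its length (7797 bases) its ratio in PαA against N was -0.02 in place of -0.66. *Eif6*, which keeps the large subunit from joining early, had 40.7, 43.2 and 47.7. *Eif5a*, the factor that carries hypusine and helps at stalled codons, had an RPKM of 230, 249 and 296, with a log2 ratio of 0.37 (0.34 to 0.40) in PαA against N, and 98.1% to 98.7% of the summed RPKM with its paralog *Eif5a2* (4.34, 3.79 and 3.77).

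Taken over the roles, 20 of the 60 members (33.3%) had the order N below αA below PαA, against 12.6% of expressed genes, and 16 (26.7%) the opposite order, against 38.7%. With TMM factors 31 members (51.7%) stood in the first order and 10 (16.7%) in the second, against 24.3% and 24.7% of expressed genes. *Eef1a1*, *Eef1b2*, *Eef1d*, *Eef1g*, *Eif3g*, *Eif3h*, *Eif3i*, *Eif3k*, *Eif5a* and *Eif2s3y* were in the first order with RPKM and with TMM factors, and *Eef2k*, *Eif3a*, *Eif3c*, *Eif4b*, *Eif4g1*, *Eif4g2* and *Eif4g3* in the second. *Eef2*, *Eif2s3x*, *Eif3f* and *Eif4a2* joined the first order only with TMM factors, and *Eif3b*, *Eif3d*, *Eif1b* and *Eif2s2* left the second. With TPM 9 members (15%) stood in the first order, against 6.99% of expressed genes, and 26 (43.3%) in the second, against 52.0%, and *Eef1a1* and *Eif3g* were in neither. Each library is 1 sample, so the order has no replicate check.

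The members share a relation to exon length that all genes showed. In PαA against N the 19 members with exons under 2000 bases had a median log2 ratio of 0.19, the 28 with 2000 to 5000 bases one of 0.05, and the 13 with 5000 bases and over one of -0.28. For all expressed genes the medians in these classes were 0.07, -0.23 and -0.58. Across the members the ratio and exon length had a Spearman coefficient of -0.45 (n = 60), and across 9643 expressed genes one of -0.44. Genes are not independent, and these values describe 3 libraries. Centred on genes of the same length, the median of the members lay 0.19 above that of expressed genes in PαA against N, 0.08 in αA against N and 0.10 in PαA against αA. In PαA against N 10 members (16.7%) were then past 1.5-fold upwards (background 10.7%). They were *Eef1akmt4*, *Eef1b2*, *Eef1d*, *Eef1e1*, *Eif1ax*, *Eif2d*, *Eif2s3y*, *Eif4e*, *Eif4e2* and *Eif4e3*. Past it downwards were 3 (5.0% against 12.5%), *Eef1akmt2*, *Eef2k* and *Eif3a*. In αA against N 1 was past it upwards (6.39%) and 2 downwards (8.16%), and in PαA against αA 3 upwards (8.42%) and 1 downwards (9.27%). The part of RNA length or RNA quality in the ratios was not tested.

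**Figure D5:**
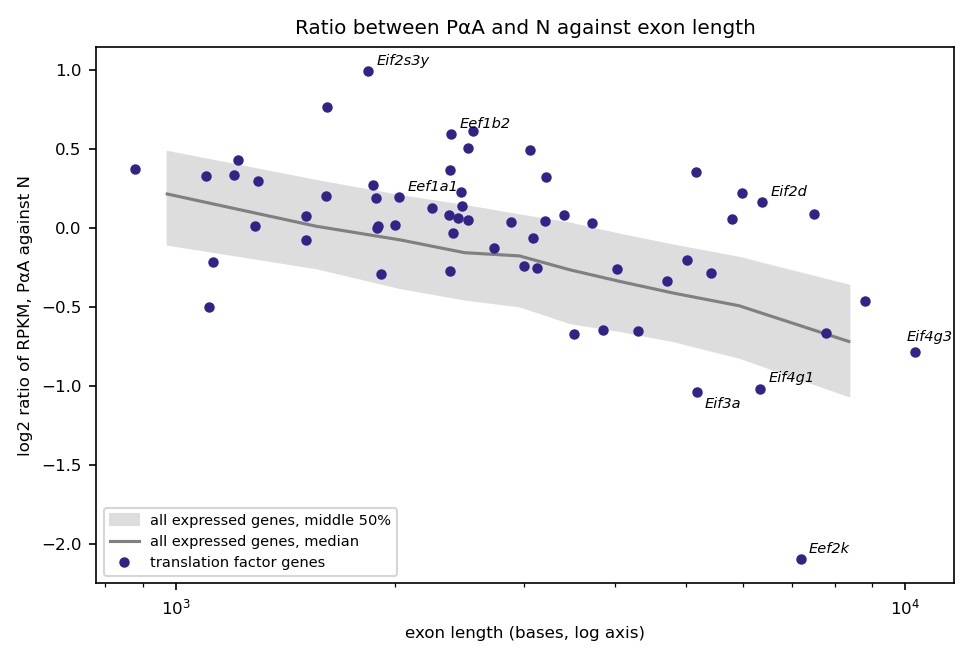
log2 ratio of RPKM in PαA against N (vertical axis) against exon length in bases (log axis) for the 60 expressed members (points). The line and the band are the median and the middle 50% of all expressed genes in 10 classes of exon length. Members follow the slope of all genes, *Eef2k*, *Eif3a* and *Eif4g1* are among those below the band, and *Eif2s3y* and *Eef1b2* are among those above it.

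The reads of the members were mostly unique and crossed exon junctions more often than those of expressed genes. Between 31.8% and 32.2% of exon reads of the median member crossed an exon junction in the 3 libraries, against 21.9% to 22.1% for all expressed genes, and 0.33% to 0.76% of gene reads of the median member lay in introns, against 1.87% to 3.18%. More than 95% of exon reads were unique in each library for 42 members. Fewer than 50% were unique for 9, *Eef1akmt2*, *Eef1akmt4*, *Eif1*, *Eif2s2*, *Eif3j1*, *Eif3j2*, *Eif3m*, *Eif4e3* and *Eif4enif1*. The strand setting of the counting was not given in the sources used here, and 17 members overlap another gene, by as little as 9 bases for *Eef1b2*. Reads within a shared stretch cannot be assigned to one partner, and several of the partners had no reads.

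The cytosolic ribosomal proteins, which are made with the factors and whose mRNAs carry TOP tracts, gave a comparison. Over 81 expressed genes their median log2 ratio was 0.11 in αA against N, 0.40 in PαA against αA and 0.50 in PαA against N, and 25 of the 81 were past 1.5-fold in PαA against N, all of them higher, where 6.64% of expressed genes were higher and 26.6% lower. They took 13.1%, 14.8% and 19.1% of the exon reads. Their exons are short, with a median of 963 bases against 2515 for the members, and centred on length the median in PαA against N was 0.33. Other mRNAs known to carry the tract had a median of 0.36 over 11 genes in that comparison. *Tpt1* was the most abundant of them, with an RPKM of 6361, 7136 and 8944, *Rack1*, a ribosome-bound scaffold, had 1600, 1829 and 2610, and *Vim* had 351, 299 and 521. *Pabpc1*, the poly(A)-binding protein that also carries the tract, went the other way with 812, 712 and 582.

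The other lists of the pathway are held against the expressed genes. Of these, 6.64% were higher and 26.6% lower in PαA against N, at a median log2 ratio of -0.23. Of the eIF2 kinases, phosphatase subunits and their targets, 9 genes were expressed, with a median log2 ratio of -0.20 in αA against N and -0.55 in PαA against N, which is -0.05 and -0.32 relative to expressed genes. In PαA against N 3 of the 9 were lower and none was higher. *Eif2ak2* (PKR, the kinase activated by double-stranded RNA) had an RPKM of 4.38, 1.29 and 0.838, with 561, 151 and 92 reads. *Atf4*, the transcription factor translated when eIF2 is phosphorylated, had 37.2, 20.4 and 17.7, and its target *Ddit3* had 14.9, 13.9 and 8.21. *Eif2ak3* (PERK) was highest in αA with 2.28, 3.25 and 1.61, and *Ppp1r15a*, a phosphatase subunit, was lowest in PαA with 5.83, 5.91 and 3.93.

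Of the mTOR and MNK genes 13 were expressed, with medians of -0.26 and -0.35 in αA and PαA against N, or -0.11 and -0.12 relative to expressed genes. Centred on exon length the median in PαA against N was 0.02. With RPKM 4 of them were lower in PαA against N and none higher. With TMM factors *Mtor* (-0.92) and *Rptor* (-1.06) were lower and *Mlst8* (0.62) higher, while *Tsc2* (-0.45) and *Larp1* (-0.48) fell short. Centred on exon length, *Rptor* (-0.67) was lower and *Mlst8* (0.65) higher. Only 50.1%, 72.9% and 47.5% of the exon reads of *Mlst8* were unique in N, αA and PαA. *Mtor* itself had an RPKM of 2.67, 1.55 and 1.20, its partner *Rptor* 7.08, 3.36 and 2.89, the inhibitor *Tsc2* 7.21, 6.41 and 4.50, *Larp1*, which binds TOP tracts, 9.92, 7.81 and 6.08, and *Rps6kb2* 4.07, 1.98 and 2.93. *Pdcd4*, an inhibitor of eIF4A, was the most abundant with 102, 89.7 and 93.7.

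Initiation helpers and poly(A)-binding proteins had a median log2 ratio of -0.41 in PαA against N over 16 genes, or -0.18 relative to expressed genes. With RPKM 1 was higher (*Paip1*, RPKM 8.28, 13.6 and 13.3) and 5 lower (*Dhx29*, *Abcf1*, *Larp4*, *Larp4b* and *Habp4*). With TMM factors *Paip1* (0.92) was higher and only *Dhx29* (-0.82) and *Larp4b* (-0.80) lower. Centred on exon length, *Dhx29* (-0.65) alone was lower, and *Paip1* (0.87), *Paip2b* (0.67) and *Serbp1* (0.68) were higher. *Denr* and *Paip2b*, whose products help tRNA delivery and restrain the poly(A)-binding protein, were lowest in αA, with 22.8, 16.0 and 24.9 and with 14.0, 11.1 and 17.8. The termination and recycling factors had a median of -0.44 over 7 genes, or -0.20 relative to expressed genes, and of -0.02 when centred on exon length. *Etf1*, the release factor, was the most abundant with 41.3, 37.3 and 35.5, and *Secisbp2*, which serves selenocysteine insertion, was past 1.5-fold in each comparison with 3.97, 2.40 and 1.10.

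The enzymes that place hypusine on eIF5A and diphthamide on eEF2 had a median of -0.08 over 8 genes, which turned to 0.15 with TMM factors. *Dhps*, the hypusine enzyme, led with 15.6, 13.2 and 13.3, *Dph2* had 5.31, 5.10 and 3.17, and *Dph6* was lowest in αA with 5.25, 3.35 and 4.87. The mitochondrial factors had a median of -0.05 over 10 genes, which turned to 0.18 with TMM factors. *Tufm*, the mitochondrial counterpart of eEF1A, led with 50.4, 43.9 and 49.6, and the elongation factor *Gfm1* was lowest in αA with 8.08, 4.32 and 8.53. *Mtif2* (9.37, 6.86 and 5.15) and *Guf1* (2.02, 1.32 and 1.30) were lower in PαA than in N, and *Mtrf1* and *Mtrf1l* were highest in αA with 2.80 and 4.81.

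Lists that go with growth were read out too, beside 6.64% of expressed genes higher and 26.6% lower in PαA against N. The Myc family had a median of -0.49 over 8 genes in PαA against N, or -0.26 relative to expressed genes, and 3 of the 8 were lower. *Myc* had an RPKM of 12.8, 11.9 and 11.5, *Mxd4*, a Myc antagonist and the most abundant of the list, 71.0, 66.9 and 40.9, and *Mxd1*, *Mxi1* and *Mxd3* also passed 1.5-fold in at least 1 comparison. Cell cycle genes had a median of -0.52 over 20 genes, or -0.28 relative to expressed genes, with 8 lower and 2 higher in PαA against N. *Mki67* had 2.68, 0.401 and 0.519 and *Top2a* 10.5, 4.87 and 3.47, while *Ccnb1* (2.78, 3.32 and 4.69) and *Ube2c* (2.28, 3.60 and 4.08) were higher, and *Pcna*, the most abundant, was level at 153, 152 and 163.

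Markers of other cells were read out in the same libraries, since all cells contain translation factors, and fewer cells of a type and less RNA per cell cannot be told apart in such bulk samples. The counts below stand beside 6.64% of expressed genes higher and 26.6% lower in PαA against N. B and plasma cell markers had a summed RPKM of 60.2 in N, 71.4 in αA and 114 in PαA. Of the 5 expressed ones 3 were higher in PαA than in N (*Jchain*, *Sdc1* and *Cd79a*) and 1 lower (*Ms4a1*), *Jchain* was the most abundant with 44.3, 58.4 and 94.8, and *Sdc1* had 0.744, 1.03 and 5.97. Erythroid and platelet markers summed to 294, 1138 and 1076, led by *Hbb-bs* with 213, 835 and 785, and 4 of 4 expressed ones were higher in PαA than in N. Myeloid and granulocyte markers summed to 266, 170 and 237, led by *Lyz2* with 214, 134 and 184, with 1 of 6 higher in PαA than in N (*Adgre1*), and *S100a9* had 0 reads in αA alone. CD8 and NK cell markers summed to 15.5, 19.3 and 17.1, with 2 of 4 expressed ones higher and 1 lower in PαA than in N, led by *Cd8b1* with 9.07, 12.03 and 5.24, and *Cd8a* had 0.193, 2.10 and 2.90. The T cell and TFR markers summed to 1857, 1665 and 1160, with 4 of 8 lower in PαA than in N. No defining marker was at 0 in more than 1 library, and the part of other cells in the ratios of the translation factors was not tested.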

How the data were processed

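The authors made poly(A) libraries from 10 ng RNA with 15 PCR cycles, sequenced 59-base single reads, and aligned and counted them on GRCm38 in CLC Genomics Workbench with default settings. The annotation release was not given in the sources used here. The authors deposited, per gene, whole-number counts of total, unique, junction and intron reads, and RPKM and TPM with decimal commas. The expression value equals the total exon reads. The 3715 of 25759 genes without an exon length were left out.

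The members and gene lists were chosen with earlier results of these data known. Genes named are the 10 most abundant members, members past 1.5-fold, those leading each role by level or ratio, the stated paralogs and members at 0 reads. From the lists the most abundant gene is named, with some but not all of those past 1.5-fold. In 3 comparisons of RPKM, genes with a mean RPKM above 1 were used, with exact Clopper-Pearson 95% intervals. With 1 library per genotype no test was run. TMM factors (1.07, 1.00 and 0.931 for N, αA and PαA) came from edgeR 4.0.16 in R 4.3.3, and only these factors were used. Other steps used Python 3.11.15, pandas 2.3.3 and scipy 1.17.1. The ratios and intervals were tested on simulated counts. Start windows came from RefSeq. ChIPseq and other experiments of the study were not analysed here. A marker gene on one list is not reported here.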

Additional observations from a re-analysis of the deposited data

How the results depend on the processing

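No paired analysis was possible because each genotype has 1 library and no result comes from a test. The counts past 1.5-fold moved with the level limit. In αA against N they were 7, and 3 with a mean RPKM above 5 and 4 with an RPKM above 5 in any library. In PαA against αA they were 5, and 2 and 3 with these limits. Centred on exon length, αA against N gave 3 members. Without the binding and modifying proteins αA against N gave 4 and PαA against αA 2, and a pseudocount of 1 gave 2 in PαA against αA. Past 2-fold the counts were 1, 2 and 3 in αA against N, PαA against αA and PαA against N. With the looser fold limit that was tried they were 12, 15 and 24, since the limit itself sets them. The share of expressed genes is not given at this looser limit or at the limits of an RPKM above 5. Counts at those limits therefore do not show whether members passed more or less often than expressed genes. The distance between the medians of members and expressed genes in PαA against N was 0.28, and 0.19 centred on length. The other settings (TPM, TMM, size factors, unique reads, thinned reads, a pseudocount of 0.1, no level filter) kept these counts, with both directions summed, within 1.5 times. The split by direction moved with the scaling. In PαA against N it was 4 higher and 8 lower, 9 and 3 with TMM factors, 10 and 3 centred on exon length and 1 and 10 with TPM. In αA against N it was 1 and 6, and 3 and 3 with TMM factors. Size factors gave the counts of TMM factors to within 1 member.

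Of 24 member ratios past 1.5-fold, 190 of 192 alternative values kept the direction and 40 fell short of 1.5-fold. The 2 that turned were *Eef1akmt4* in PαA against N with unique reads (-1.51) and *Eif4g3* in PαA against N centred on length (0.0194), and the cause was not tested. Among the members with a ratio past 1.5-fold, *Eef2k* had the fewest exon reads, 91 in PαA.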
